A study of Mus musculus with 9 samples.

Results

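The average carrier of a Bub1b mutation was compared with wild type (WT) in mouse gastrocnemius, the large calf muscle, using all 9 libraries of the series: 3 WT, 3 hetL1002P and 3 hetX753. The members are the 6 carrier libraries, set against the 3 WT libraries with each genotype given equal weight, so that the average carrier is the midpoint of the hetL1002P and hetX753 means. The hetL1002P mice are labelled BubR1+/L1002P and the hetX753 mice BubR1+/X753, so every carrier keeps 1 wild-type allele, and BubR1 is the protein that Bub1b encodes. All mice were 3 months old and on a mixed 129Sve and C57BL/6 background, with no treatment given in the labels. The labels call both mutations MVA alleles, for mosaic variegated aneuploidy, a human syndrome of chromosome number errors. They do not say whether the 3 libraries of a genotype are separate animals, so the p-values describe only how these samples vary, part of which may be technical.

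BubR1 is a core part of the spindle assembly checkpoint. This checkpoint holds a dividing cell in metaphase until every chromosome is attached to the spindle. Within the mitotic checkpoint complex it binds the activator of the anaphase-promoting complex and delays the breakdown of cyclin B and securin. It also recruits a phosphatase to kinetochores, where it stabilises their attachment to microtubules. Muscle fibres are post-mitotic, so in adult muscle its transcript is scarce and dividing cells are few.

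The libraries held 19768149 to 33977252 counted reads. Markers of muscle fibres summed to between 219000 and 290000 CPM (reads scaled to a common library depth, with TMM factors) in every library, which fits the tissue on the label. Along the first principal component, which held 39.7% of the variance, WT 3 stood at -47.5 and hetL1002P 3 at -32.5, while the other 7 libraries ran from -9.52 to 28.8. Those same 2 libraries had the lowest Spearman correlations, across 12917 genes, between a library's deviation from the mean of the 9 and transcript length, -0.607 in WT 3 and -0.364 in hetL1002P 3, against -0.294 to 0.51 in the others. Values without WT 3, hetL1002P 3 or both are given beside the results that moved most with them. This is bulk tissue, so fewer cells of a type and less RNA per cell cannot be told apart.

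Bub1b itself stood lower in the carriers. Its level was 0.621, 0.568 and 0.774 CPM in the WT libraries, 0.393, 0.324 and 0.0949 CPM in the hetL1002P libraries and 0.287, 0.316 and 0.231 CPM in the hetX753 libraries. The highest carrier library lay below the lowest WT library, as in 1.53% of all genes tested, and the lowest of the 9 was hetL1002P 3, with 2 reads. The difference was -1.21 ± 0.37 on the log2 scale (SE), or 2.31-fold lower, with an adjusted p of 0.235 in edgeR's quasi-likelihood test with Benjamini-Hochberg adjustment over the 12989 genes tested, so it did not pass the threshold of 0.05. Both alleles gave nearly the same value, -1.21 for hetX753 and -1.21 for hetL1002P, and the 95% interval of the difference between them, -1.22 to 1.23, is wide at 2 to 21 reads per library. A gene-level count does not separate the mutant from the wild-type transcript.

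Only 2 genes passed the test in the average carrier, 0.0154% of those tested, both higher, and both on chromosome 2 with Bub1b. No gene passed as lower (0%), while 1026 (7.9%) were lower and 1328 (10.2%) higher at an unadjusted p under 0.05. limma-voom also called 2, and DESeq2 called 201, of which 154 were higher and 47 lower. The gene Bub1b lies at 118598202 to 118641592 on chromosome 2 (RefSeq, GRCm38.p6). The 2 called genes start 1.568 and 3.887 Mb away. On the mixed background, nearby DNA inherited with a mutated Bub1b cannot be told apart from the mutation itself, and its part was not tested. For Bub1b and the farther called gene, named Gm14085 in the count table, the 250 bases before a RefSeq start site are shown. Both genes lie on one chromosome segment, and their levels stood on opposite sides of WT. The window of the nearer called gene, Pla2g4e, is left out because it lies wholly within the span of that gene. The last bases of the Bub1b window also fall within the gene span given above. Each window shown is given 5′ to 3′ on the plus strand. Capitals mark CANNTG, the E-box that MyoD family factors bind.

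Bub1b, chr2:118597961-118598210: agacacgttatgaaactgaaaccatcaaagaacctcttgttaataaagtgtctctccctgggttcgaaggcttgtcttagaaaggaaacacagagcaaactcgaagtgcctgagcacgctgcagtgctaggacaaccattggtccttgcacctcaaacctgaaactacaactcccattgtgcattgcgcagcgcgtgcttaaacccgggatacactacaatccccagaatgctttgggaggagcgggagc

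Gm14085, chr2:122484691-122484940: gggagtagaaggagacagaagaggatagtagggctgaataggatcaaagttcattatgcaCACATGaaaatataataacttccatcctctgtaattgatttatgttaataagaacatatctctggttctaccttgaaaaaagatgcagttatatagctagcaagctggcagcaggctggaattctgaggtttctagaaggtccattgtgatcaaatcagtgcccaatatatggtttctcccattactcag

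The E-box letters occur once in the Gm14085 window and not in that of Bub1b, against 66.0% of 27025 RefSeq promoters of this length with a match on either strand. CCAAT, the letters that NF-Y binds, occur once in each, against 34.5% of promoters. TTTGAA, the core of the cell cycle homology element, occurs in neither, against 16.3%, and likewise GGGCGG, a GC box, against 32.9%. CCAAT and CANNTG matches were counted separately even where they overlap. A match describes these letters and is no evidence of binding.

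Pla2g4e, which encodes a cytosolic phospholipase A2 family enzyme that makes N-acyl phosphatidylethanolamines, rose 2.23-fold in the average carrier. It lies at 120166412 to 120245630 on chromosome 2. Its level was 29.3, 28.9 and 20.98 CPM in WT, 66.3, 63.2 and 51.3 CPM in hetL1002P and 56.5, 57.3 and 58.8 CPM in hetX753. The groups did not overlap, and the lowest carrier library exceeded the highest WT library by a wide margin. The log2 difference was 1.16 ± 0.13 (SE), with an adjusted p of 0.0334 in edgeR's quasi-likelihood test. Both carrier groups stood above WT. The hetX753 group was 1.12 ± 0.15 above it (adjusted p 0.0195, edgeR). The hetL1002P group was 1.19 ± 0.15 above it (adjusted p 0.0802, same edgeR fit). The difference between the alleles was -0.07, with a 95% interval of -0.42 to 0.285. The rule that asks both alleles to pass at once, by the larger of the 2 single-allele p-values, gave an adjusted p of 0.0802 by edgeR. After removal of the length and GC content trend of each library, the log2 difference was 1.08 and the adjusted p in edgeR 0.00295. The call was lost, in edgeR, without WT 1 (adjusted p 0.169), WT 2 (0.142), WT 3 (0.1), hetL1002P 1 (0.125), hetX753 1 (0.0582) or hetX753 3 (0.102), with log2 differences from 1.02 to 1.24 in those fits. The call was also lost with scaling by library totals (adjusted p 0.183, edgeR) and with at least 1 CPM required in 3 libraries (0.0578). Exons of Pla2g4e overlap those of the noncoding Gm13997 on the same strand, and reads there cannot be assigned with certainty.

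Gm14085, listed by RefSeq as Slc28a2b and by its name a member of the concentrative nucleoside transporter family, was nearly absent in WT and present in every carrier library. It lies at 122484941 to 122528040 on chromosome 2. It is named because it passed the test, after its values were seen, since predicted gene names are outside the naming rule. The WT libraries held 0, 1 and 0 reads of it, the hetL1002P libraries 24, 18 and 17, and the hetX753 libraries 32, 17 and 22. The levels in the carriers ran from 0.647 to 1.15 CPM. Pooled over libraries, 130 carrier reads against 1 WT read gave a depth-adjusted ratio of 64.4, with an exact 95% interval of 11.4 to 2560 that covers counting error only. The adjusted p was 0.0334 in edgeR's quasi-likelihood test, and the fitted log2 difference, 5.67 for hetX753 and 5.42 for hetL1002P, depends on the prior count. The difference between the alleles was 0.25, with a 95% interval of -0.665 to 1.156. The call was lost, in edgeR, without WT 1 (adjusted p 0.169), WT 2 (0.142), WT 3 (0.298), hetL1002P 1 (0.125), hetX753 1 (0.0582) or hetX753 3 (0.102). It was also lost with the replicate block (0.0592), with scaling by library totals (0.0846) and without both WT 3 and hetL1002P 3 (0.0534). With at least 1 CPM required in 3 libraries the gene was not tested. Its family has close relatives, so the assignment of its reads is uncertain.

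**Figure D1:**
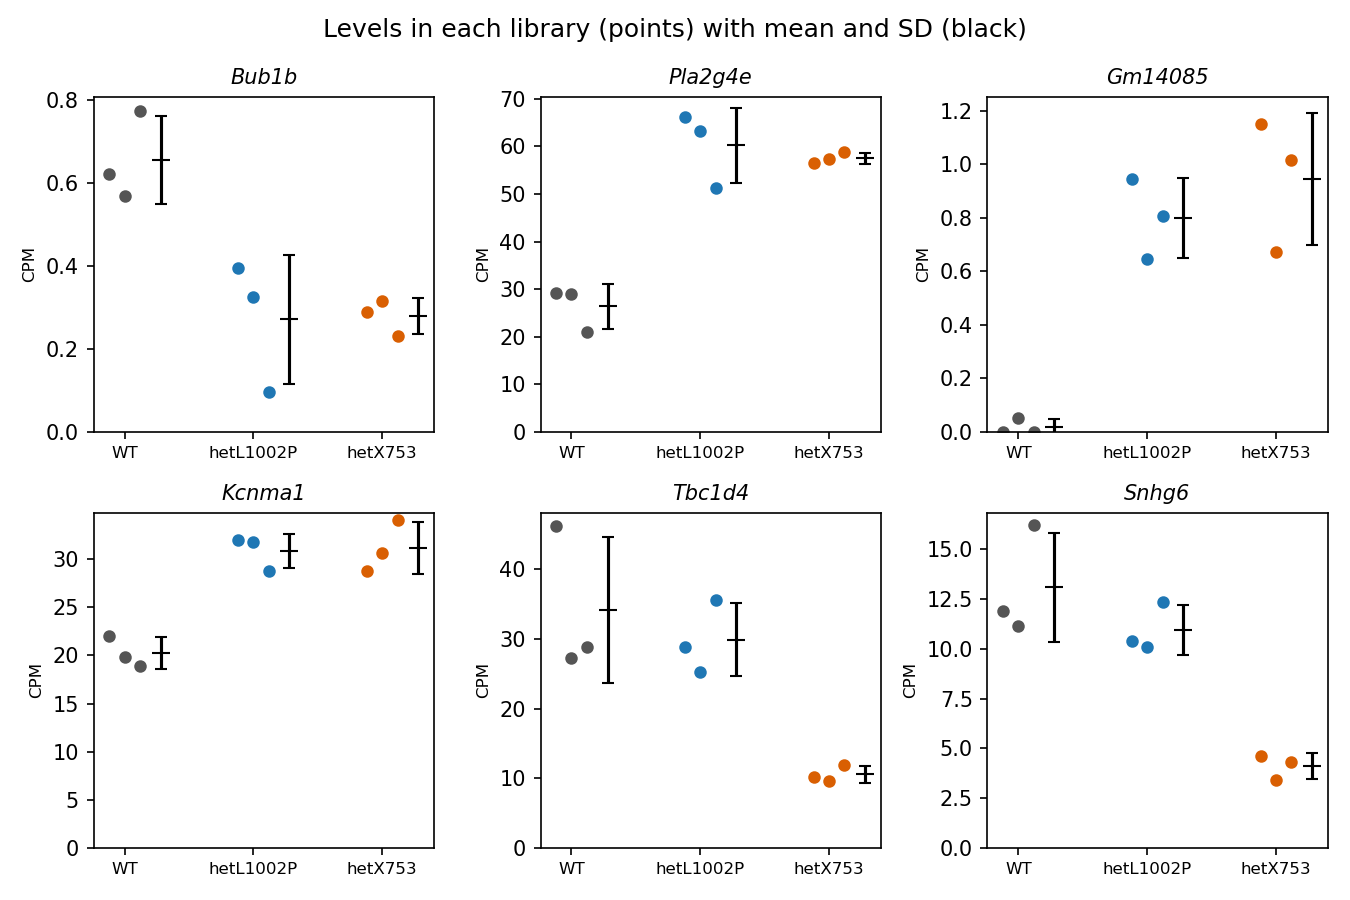
Level in CPM (vertical axis, starting at 0) of 6 genes in each of the 9 libraries, in panels by gene, with points for libraries and black bars for the mean and SD of 3. Bub1b, Pla2g4e, Gm14085 and Kcnma1 are displaced alike in both carrier groups, whereas for Tbc1d4 and Snhg6 only the hetX753 points lie apart from WT.

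The chromosome segment around Bub1b held genes on both sides of WT, more of them higher. Within 5 Mb on either side, 22 of 86 tested genes (25.6%), Bub1b counted, were higher and 10 (11.6%), with Bub1b among them, lower at an unadjusted p under 0.05, against 10.2% and 7.9% of all genes. With the length and GC trend removed, the counts were 15 (17.4%) and 6 (6.98%), against 7.21% and 6.08% of all genes. Mapkbp1, a scaffold protein of MAP kinase signalling, stood at 8.52, 8.52 and 6.53 CPM in WT, 11.7, 14.6 and 9.63 CPM in hetL1002P and 14.8, 11.4 and 16.8 CPM in hetX753. Its groups did not overlap, and the difference was 0.74 ± 0.18 (log2, SE). Map1a, a microtubule-associated protein, stood at 11.7, 11.9 and 9.19 CPM in WT, 16.5, 18.5 and 16.9 CPM in hetL1002P and 17.1, 13.9 and 13.2 CPM in hetX753. Again no carrier library fell within the WT range, at a difference of 0.55 ± 0.13. Zfp106, a zinc finger protein whose loss in mice causes neuromuscular degeneration, had WT levels of 1049, 929 and 847 CPM, hetL1002P levels of 1456, 1477 and 1013 CPM and hetX753 levels of 1452, 1451 and 1613 CPM. Here hetL1002P 3 lay among the WT libraries, and the difference was 0.58 ± 0.14. None of these 3 passed the test (adjusted p 0.235 each in edgeR), though Zfp106 did without WT 3 and hetL1002P 3 (0.59, adjusted p 0.0451). Each was displaced in both alleles, by 0.86 and 0.61 (hetX753 and hetL1002P) for Mapkbp1, 0.43 and 0.66 for Map1a, and 0.68 and 0.48 for Zfp106. Their averages with the length and GC trend removed were 0.50, 0.23 and 0.24. All 3 overlap exons of a gene on the other strand, which unstranded counting cannot separate.

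**Figure D2:**
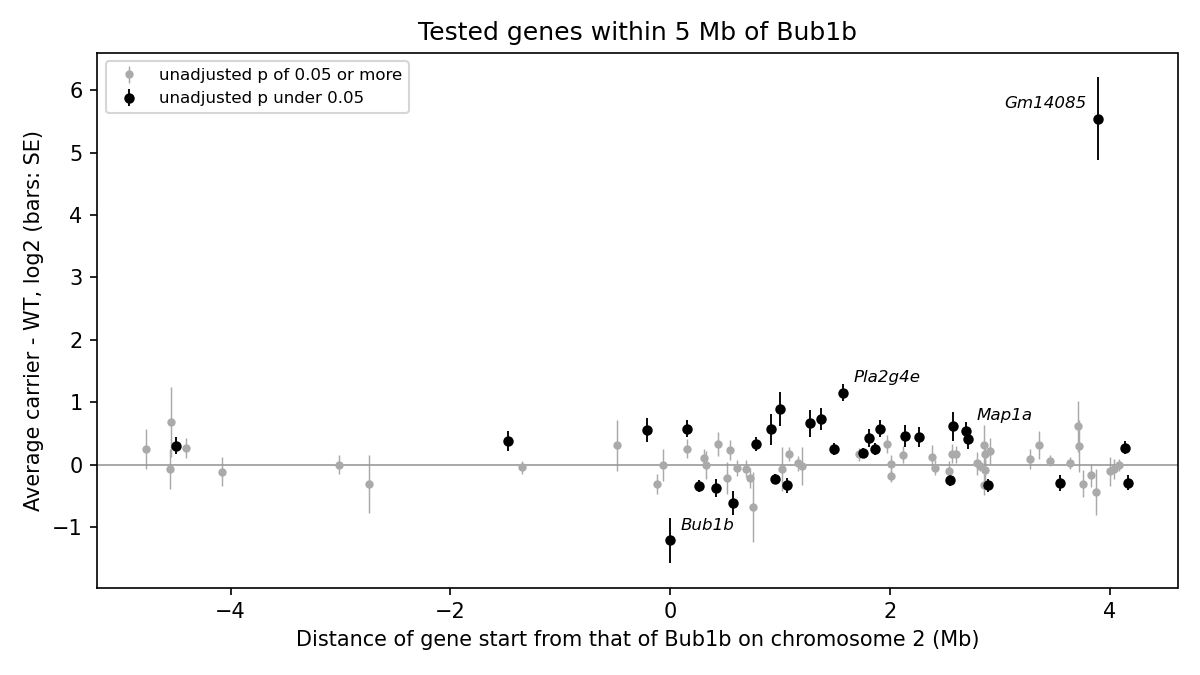
Log2 difference of the average carrier from WT (vertical axis, bars are SE) for the 86 tested genes within 5 Mb, against the distance of each gene's start from that of Bub1b in Mb (horizontal axis). Black points have an unadjusted p under 0.05; Pla2g4e and Gm14085 lie above their neighbours, and Bub1b is the lowest point.

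Beyond the 2 called genes, the 15 genes with the smallest p among those averaging at least 1 CPM give the leading edge of the average carrier: 11 were higher and 4 lower, by 0.57 to 1.55 on the log2 scale. Apart from Pla2g4e they had adjusted p from 0.202 to 0.235 in edgeR and did not pass. The groups did not overlap for 12 of them, against 4.45% of all genes tested, a count that the choice by p favours. A gene was described as shared where both alleles moved in the direction of the average and the smaller log2 value was at least 0.5 of the larger. By this rule 8 of the 15 were shared and 7 rested mainly on one allele.

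The 8 shared genes were all higher, and 1 of them, Pla2g4e, passed the test. Kcnma1, the pore subunit of the large-conductance calcium-activated potassium channel, was the most even of the other 7. Its level was 22.1, 19.8 and 18.9 CPM in WT, 32.0, 31.8 and 28.8 CPM in hetL1002P and 28.8, 30.6 and 34.1 CPM in hetX753. Every carrier library lay above every WT library, at a log2 difference of 0.61 ± 0.10, with 0.62 for hetX753 and 0.61 for hetL1002P and a 95% interval of -0.26 to 0.286 for the difference between them. With the length and GC trend removed its average was 0.23. Ccne2, which encodes cyclin E2, a partner of CDK2 at the entry to S phase, stood at 1.18, 1.14 and 1.26 CPM in WT, 2.16, 2.08 and 1.9 CPM in hetL1002P and 2.33, 2.88 and 2.58 CPM in hetX753. That is a level of 22 to 73 reads per library, and no groups overlapped. Its difference was 0.95 ± 0.18, with 1.12 for hetX753 and 0.78 for hetL1002P, and 0.90 with the length and GC trend removed. Tm6sf1, a transmembrane protein, stood at 2.1, 1.91 and 1.74 CPM in WT, 3.66, 3.49 and 3.18 CPM in hetL1002P and 3.34, 4.1 and 4.15 CPM in hetX753. Its average of 0.92 ± 0.16 was the same, 0.92, with the trend removed, and both alleles were close (1.001 and 0.84). Exons of Ccne2 overlap Ints8 on the other strand, those of Tm6sf1 overlap Hdgfl3 there and Gm45867 on the same strand, and those of Kcnma1 overlap a noncoding gene there.

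The other 4 shared genes stood higher in both alleles but farther in hetX753. They are Nin, or ninein, which anchors microtubules at the centrosome (average 0.81, hetX753 1.05, hetL1002P 0.57), Rock2, a kinase downstream of RhoA (0.58, 0.72 and 0.43), Mpp5, a scaffold protein of cell polarity (0.57, 0.72 and 0.42), and Ttc28, a tetratricopeptide repeat protein (0.89, 1.16 and 0.62). In all 4 every carrier library lay above every WT library. Removing the length and GC trend gave averages of 0.47 for Nin, 0.25 for Rock2, 0.33 for Mpp5 and 0.57 for Ttc28. Without WT 3 and hetL1002P 3, Nin averaged 0.76 and passed (adjusted p 0.015, edgeR). The intervals of the difference between the alleles (95%, unadjusted) excluded 0 in each: 0.086 to 0.884 for Nin, 0.005 to 0.586 for Rock2, 0.014 to 0.589 for Mpp5 and 0.125 to 0.953 for Ttc28. After adjustment over all genes none of these differences passed in edgeR (adjusted p 0.391 to 0.547).

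For 7 of the 15 the average was carried mainly by hetX753, and 3 of them passed the test of the difference between the alleles in edgeR. Tbc1d4, the Rab GTPase-activating protein AS160 that holds back GLUT4 vesicles until insulin or contraction signals, stood at 46.3, 27.3 and 28.8 CPM in WT, 28.8, 25.2 and 35.5 CPM in hetL1002P and 10.2, 9.63 and 11.95 CPM in hetX753. The hetL1002P libraries lay within or just below the WT range and the hetX753 libraries far below it. The average of -0.95 ± 0.17 combined -1.69 for hetX753 with -0.20 for hetL1002P, and the alleles differed by -1.49 (adjusted p 0.0355, edgeR). Snhg6, a noncoding host of a small nucleolar RNA, stood at 11.9, 11.2 and 16.2 CPM in WT, 10.4, 10.1 and 12.4 CPM in hetL1002P and 4.63, 3.39 and 4.34 CPM in hetX753. Its average of -0.96 ± 0.15 combined -1.66 with -0.26, and the alleles differed by -1.41 (adjusted p 0.0266, edgeR). Its exons overlap Mcmdc2 on the other strand. Ankrd33b, an ankyrin repeat protein, stood at 21.6, 25.1 and 20.2 CPM in WT, 29.4, 25.6 and 24.8 CPM in hetL1002P and 54.0, 48.6 and 78.2 CPM in hetX753. Its average of 0.84 ± 0.16 combined 1.43 with 0.26, and the alleles differed by 1.18 (adjusted p 0.0414, edgeR).

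The other 4 did not pass the test between alleles. Igf2, an insulin-like growth factor, averaged 0.57 (hetX753 0.85, hetL1002P 0.28), and its reads overlap Gm49394 on its own strand and Igf2os on the other. Pde4d, a phosphodiesterase that breaks down cyclic AMP, averaged 0.58 (0.86 and 0.30). Cyp2f2, a cytochrome P450, averaged -1.29 (-1.86 and -0.72), from 3.3 ± 1.18 CPM in WT to 1.98 ± 0.33 in hetL1002P and 0.892 ± 0.15 in hetX753 (SD, n = 3 each). Snhg18, a noncoding host gene of the same kind as Snhg6, averaged -1.55 (-2.52 and -0.59), from 4.59 ± 0.96 CPM in WT to 3.05 ± 0.27 in hetL1002P and 0.785 ± 0.57 in hetX753 (SD, n = 3 each). In these 4 no carrier library overlapped the WT range. Adjusted p for the difference between the alleles ran from 0.102 to 0.281 in edgeR.

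**Figure D3:**
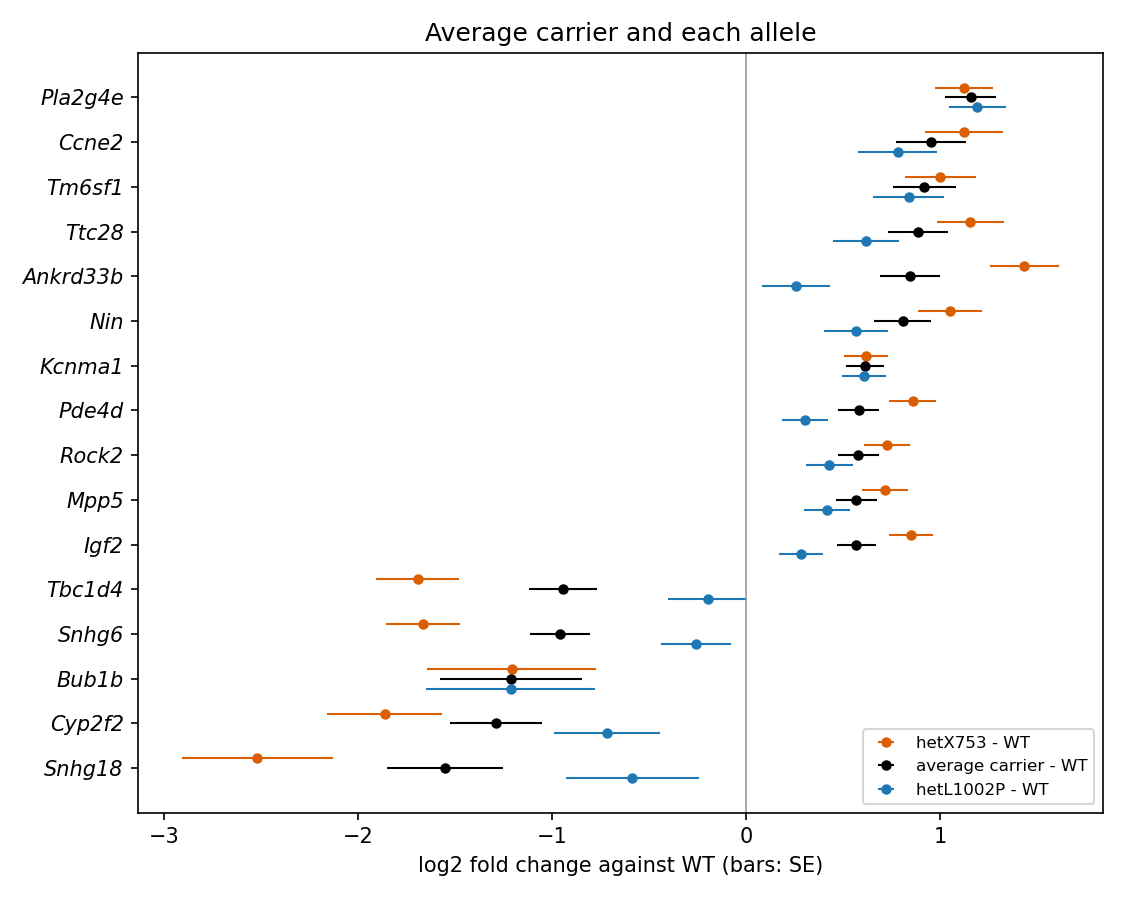
Log2 difference from WT (horizontal axis, bars are SE) of the average carrier (black), hetX753 (orange) and hetL1002P (blue) for the 15 genes of smallest p and Bub1b, ordered by the average. The 3 points coincide for Pla2g4e, Kcnma1 and Bub1b, and the orange point is the outermost for the genes described as resting mainly on one allele.

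Among genes of small p in the average, hetX753 was more often the allele farther from WT. Of 2354 genes (18.1%) with an unadjusted p under 0.05 in the average, 1762 were shared by the 0.5 rule and 592 were not, and hetX753 was the farther allele in 1884 against 470. The same splits over all genes were not counted, and choosing by p of the average favours genes whose alleles moved alike. These splits therefore only describe the 2354 genes. At an unadjusted p under 0.05 the alleles differed in 349 of the 2354 (14.8%), against 8.24% of all genes tested, with hetX753 farther in 341 and hetL1002P in 8. At an adjusted p under 0.05 in edgeR the alleles differed in 13, all with hetX753 farther, among 15 (0.115%) in all genes. Both alleles had an unadjusted p under 0.05 with the same sign in 612 genes (4.71%), 457 higher (3.52%) and 155 lower (1.19%). No gene passed by both alleles after adjustment (0%), by the larger p of the 2 contrasts in edgeR, and DESeq2 called 3: Pla2g4e, Gm14085 and Kcnma1. Those 3 rest on a Benjamini-Hochberg adjustment of the larger DESeq2 p-values. DESeq2's own adjustment, used for its 201 calls in the average, gave Gm14085 no value. Both single-allele contrasts share the WT libraries, so a shared direction is partly built in.

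These counts and the balance of higher against lower moved with WT 3 and hetL1002P 3. The genes with both alleles at an unadjusted p under 0.05 and of the same sign numbered 167 without WT 3 (121 higher, 46 lower), 2023 without hetL1002P 3 (1042 and 981), 1297 without both (732 and 565) and, after removal of the length and GC trend, 339 (222 and 117). Without WT 3 the genes at an unadjusted p under 0.05 in the average numbered 945, the alleles differing in 283 of them (29.9%, against 9.02% of all genes), with hetX753 farther in 279 and hetL1002P in 4. Without hetL1002P 3 there were 4239, the alleles differing in 384 (9.06%, against 10%), with hetX753 farther in 261 and hetL1002P in 123. Without both there were 2987, the alleles differing in 515 (17.2%, against 14.8%), with hetX753 farther in 334 and hetL1002P in 181. So the share of allele differences exceeded that of all genes by less, or not at all, once hetL1002P 3 was left out. The number of genes past the adjusted threshold moved as well: 0 without WT 3, 1369 without hetL1002P 3 (696 higher and 673 lower), and 11 without both, all higher.

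The fold changes also followed transcript length. Across 12917 genes the Spearman correlation of the average carrier's log2 difference with transcript length was 0.563, a description across genes, which are not independent replicates. In hetX753 it was 0.471 and in hetL1002P 0.587. The median difference went from -0.31 in the tenth of genes with the shortest transcripts, where 14 were higher and 374 lower at an unadjusted p under 0.05, to 0.31 in the tenth with the longest, where 424 were higher and 7 lower. With a smooth trend on length and GC content removed in each library the correlation was 0.0035, a value that the removal itself brings near 0. Such removal would also take out any difference between genotypes that followed length. In that fit 1727 genes (13.3%) had an unadjusted p under 0.05. The alleles then differed in 431 of those (25%, against 11% of all genes), with hetX753 farther in 425 and hetL1002P in 6. The part of this trend in any gene group below was not tested.

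**Figure D4:**
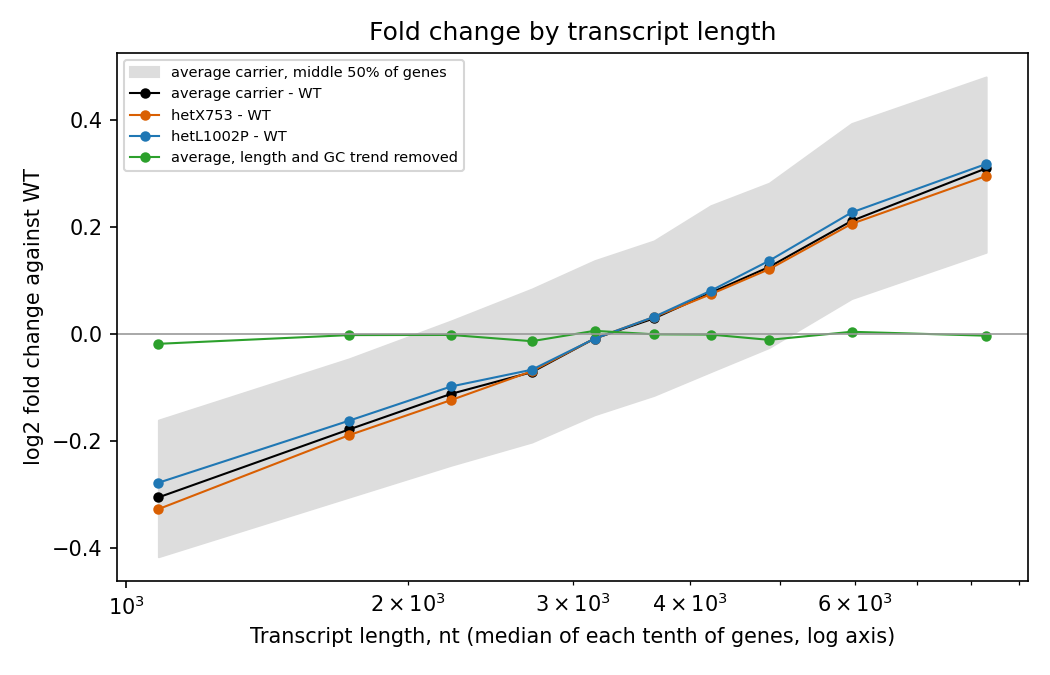
Median log2 difference from WT (vertical axis) in 10 equal bins of the tested genes by transcript length (horizontal axis, nucleotides, log scale), for the average carrier (black, grey band the middle 50% of genes), each allele, and the average with the length and GC trend removed (green). The black line climbs from -0.31 to 0.31, both alleles run beside it, and the green line stays near 0, which the removal itself brings about.

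Gene groups of muscle biology were read against this trend, and no member of any of the 34 lists but Pla2g4e passed the test. At an unadjusted p under 0.05, 10.2% of all genes were higher and 7.9% lower, the shares against which each list's counts below are to be read. For counts with the length and GC trend removed, the shares are 7.21% and 6.08%. Over all genes 6598 were above and 6391 below 0, with a median of 0.01. The groups of short, abundant transcripts lay below WT almost throughout. Of 46 nuclear genes of oxidative phosphorylation, 45 were below 0 (median -0.33, hetX753 -0.38, hetL1002P -0.26), 12 of them at an unadjusted p under 0.05. Of 46 cytosolic ribosomal proteins all 46 were below 0 (median -0.31, with -0.33 and -0.30), 21 of them at that p. Of 31 proteasome genes 30 were below 0 (median -0.29, with -0.26 and -0.26), 7 at that p. With the length and GC trend removed the medians were -0.08, -0.04 and -0.05, without WT 3 they were -0.13, -0.17 and -0.07, and without WT 3 and hetL1002P 3 they were -0.23, -0.25 and -0.13. Cox4i1, a subunit of cytochrome c oxidase, shows the pattern, at 705, 804 and 1244 CPM in WT, 584, 520 and 936 CPM in hetL1002P and 668, 631 and 551 CPM in hetX753. Within their genotypes, WT 3 and hetL1002P 3 were the high libraries, and carrier and WT ranges overlapped.

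Long transcripts of the cytoskeleton lay the other way. Of 34 giant cytoskeletal and dystrophin complex genes, 28 were above 0 (median 0.32, with 0.34 in hetX753 and 0.31 in hetL1002P) and 16 were higher at an unadjusted p under 0.05. With the trend removed the median was 0.05, and 9 were higher and 3 lower at that p. The median was 0.16 without WT 3 and 0.21 without WT 3 and hetL1002P 3. Dmd, which encodes dystrophin, the link between actin and the membrane complex, stood at 45.1, 45.6 and 26.2 CPM in WT, 89.0, 89.2 and 41.1 CPM in hetL1002P and 79.2, 84.4 and 89.8 CPM in hetX753. WT 3 and hetL1002P 3 were the low libraries, hetL1002P 3 lying within the WT range, and the average was 1.01 ± 0.26, shared by hetX753 (1.11) and hetL1002P (0.91). It was 0.59 with the trend removed and 0.94 without both of those libraries, where it passed (adjusted p 0.00371, edgeR) and did so by both alleles (0.00951). Sgcd, or delta-sarcoglycan, a member of the same membrane complex, stood at 5.21, 4.13 and 5.9 CPM in WT, 8.42, 11.9 and 6.17 CPM in hetL1002P and 8.19, 8.25 and 9.83 CPM in hetX753. Its groups did not overlap, and its average of 0.79 ± 0.21, or 0.61 with the trend removed, was even between the alleles (0.78 and 0.80). Dst, a giant linker of filaments, averaged 0.53 (0.66 and 0.41), or 0.16 with the trend removed. Nrap, which organises assembling myofibrils, averaged 0.42 (0.65 and 0.19), or 0.25 with the trend removed.

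Among markers of muscle fibres 8 of 11 were below 0 and 6 lower at an unadjusted p under 0.05 (median -0.27, or -0.10 with the trend removed). Acta1, skeletal actin, averaged -0.37, Tnni2 and Tnnt3, troponin subunits of fast fibres, -0.52 and -0.40, and Pvalb, a calcium buffer of fast fibres, -0.50. With the trend removed these 4 averages were -0.12, -0.17, -0.10 and -0.19. The 3 markers above 0 were the fast myosin heavy chains Myh4 (0.09), Myh1 (0.27) and Myh2 (0.04), named after their values were seen, with unadjusted p of 0.05 or more. The summed level of these markers was 259000 to 290000 CPM in WT, 229000 to 259000 in hetL1002P and 219000 to 236000 in hetX753. Of 23 satellite cell and myogenesis genes 17 were above 0 (median 0.21, or 0.08 with the trend removed, 0.06 without WT 3, and 0.12 without WT 3 and hetL1002P 3), 4 higher and 2 lower at an unadjusted p under 0.05. Spry1, a feedback inhibitor of receptor tyrosine kinases that keeps satellite cells quiescent, stood at 31.5, 32.0 and 26.3 CPM in WT, 30.9, 33.6 and 22.01 CPM in hetL1002P and 16.3, 16.4 and 16.7 CPM in hetX753. Only the hetX753 libraries were apart, and the average of -0.46 combined -0.86 with -0.05.

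Genes of atrophy and denervation did not share a direction. Of 27 tested, 16 were above and 11 below 0, with 3 higher and 2 lower at an unadjusted p under 0.05. Musk, the receptor kinase that organises the neuromuscular junction, stood at 9.94, 9.03 and 5.66 CPM in WT, 18.0, 18.8 and 12.1 CPM in hetL1002P and 14.3, 12.1 and 10.8 CPM in hetX753. All 6 carrier libraries lay above WT, at an average of 0.79 ± 0.21 that was larger in hetL1002P (0.99) than in hetX753 (0.59), a difference between alleles of -0.40 that missed the unadjusted threshold. With the trend removed it was 0.79. The muscle ubiquitin ligases lay below WT, Trim63 at an average of -0.41 (-0.47 in hetX753, -0.35 in hetL1002P), or -0.24 with the trend removed, and Fbxo32 at -0.53 (-0.72 and -0.35), or -0.86. Mstn, or myostatin, the negative regulator of muscle mass, averaged 0.46 (0.52 and 0.40). None of these passed the test.

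Genes of fuel use lay on both sides of WT. Of 40 genes of fatty acid use 9 were higher and 0 lower at an unadjusted p under 0.05 (10.2% and 7.9% of all genes), although 21 were above and 19 below 0 and the median was 0.02. With the trend removed 10 were higher and 1 lower, against 7.21% and 6.08% of all genes. Cpt1a, which passes fatty acids into mitochondria, stood at 4.17, 4.59 and 4.01 CPM in WT, 4.76, 6.15 and 4.65 CPM in hetL1002P and 8.41, 13.2 and 13.8 CPM in hetX753. Every carrier library was above WT, but the average of 0.88 ± 0.19 combined 1.47 for hetX753 with 0.29 for hetL1002P. Acot2, a mitochondrial acyl-CoA thioesterase, averaged 0.73 (1.11 and 0.36), Mgll, which splits monoacylglycerol, 0.30 (0.53 and 0.07), and Acacb, which makes the malonyl-CoA that inhibits Cpt1 enzymes, 0.33 (0.41 and 0.26), or 0.05 with the trend removed. Of 29 genes of glycolysis and glycogen 3 were higher and 1 lower at that p (1 and 0 with the trend removed). Pdha1, a subunit of pyruvate dehydrogenase, was higher in every carrier library, at 466 to 539 CPM against 382 to 411 CPM, with 0.35 in hetX753 and 0.30 in hetL1002P. Hk2, the muscle hexokinase, averaged 0.37 (0.45 and 0.28), or 0.21 with the trend removed, also with no overlap. In insulin signalling and glucose uptake 5 of 28 were higher and 1, Tbc1d4, lower. With the trend removed 2 were higher and 1 lower, and the median went from 0.05 to -0.03.

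Among phospholipases and vesicle genes, the list that holds Pla2g4e, 2 of 21 were higher and 2 lower at an unadjusted p under 0.05. Pla2g7, a secreted phospholipase that inactivates platelet-activating factor, stood at 72.4, 48.9 and 63.5 CPM in WT, 85.6, 46.6 and 70.1 CPM in hetL1002P and 22.8, 15.1 and 17.1 CPM in hetX753. The average of -0.81 combined -1.75 for hetX753 with 0.13 for hetL1002P, and the alleles differed by -1.88 (adjusted p 0.0266, edgeR).

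Genes of the checkpoint that Bub1b belongs to lay on both sides of WT. Of 21 tested genes of the spindle assembly checkpoint and anaphase-promoting complex, 15 were below 0, with a median of -0.08 that turned to 0.02 under scaling by library totals, and 2 were higher and 3 lower at an unadjusted p under 0.05. Apart from Bub1b these were Anapc1 (0.40) and Cdc27 (0.37), higher, and Cdc26 (-0.41), lower, all subunits of that complex, and Bub3 (-0.25), lower, the kinetochore partner of BubR1, which is named here after its value was seen. Cdc27 combined 0.50 in hetX753 with 0.23 in hetL1002P. Once the length and GC trend was removed, 0 checkpoint and complex genes were higher and 4 lower, Anapc1 at 0.08 and Cdc27 at 0.13. Of 11 proliferation genes 1, Rrm2, a subunit of ribonucleotide reductase, was higher, at 0.69 (0.98 in hetX753, 0.40 in hetL1002P) on 9 to 26 reads per library. Of 22 p53 targets and cell cycle inhibitors 1 was higher, Ccng1, at 0.23 and alike in the alleles (0.22 and 0.24), and 2 lower, Perp (-0.76) and Ei24 (-0.24, or -0.14 with the trend removed). Perp combined -1.12 in hetX753 with -0.40 in hetL1002P, and Ei24 combined -0.34 with -0.15. Of 12 secreted senescence factors 3 were lower, all matrix metalloproteinases (Mmp3 -1.30, Mmp2 -0.32, Mmp14 -0.48), and 1 higher, the angiogenic factor Vegfa (0.47). In hetX753 and hetL1002P, Mmp3 stood at -1.78 and -0.82, Mmp2 at -0.525 and -0.118, and Mmp14 at -0.87 and -0.09. Vegfa stood at 0.54 and 0.40. Of 25 interferon response genes 1 was higher and 3 lower, with a median of -0.21 (0.01 in hetX753, -0.25 in hetL1002P). That median was -0.05 with the length and GC trend removed, where 1 was higher and 1 lower, -0.10 without WT 3 and -0.06 without WT 3 and hetL1002P 3.

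Among immediate early genes, which are induced within minutes of a stimulus, 5 of 21 were lower and 1 higher at an unadjusted p under 0.05. Junb stood at 29.0, 11.1 and 12.7 CPM in WT, 8.22, 8.38 and 7.88 CPM in hetL1002P and 11.03, 6.28 and 6.74 CPM in hetX753. Fos stood at 53.9, 5.94 and 7.2 CPM in WT, 7.32, 6.15 and 3.42 CPM in hetL1002P and 3.92, 1.97 and 3.42 CPM in hetX753. WT 1 was far above the other WT libraries for both. The carrier libraries lay below WT for Junb, hetX753 1 only just, and overlapped it for Fos. Exons of Junb overlap Prdx2 on the other strand, which unstranded counting cannot separate. Without WT 1 the Fos average moved from -2.43 to -0.65 and that of Junb from -1.13 to -0.55. Atf3, a transcription factor of stress responses, went the other way, at 2.9 to 4.18 CPM in WT, 3.45 to 9.64 CPM in hetL1002P and 5.01 to 11.2 CPM in hetX753, an average of 1.06 (1.27 and 0.86). Against 10.2% higher and 7.9% lower over all genes, 5 of 31 genes of the unfolded protein and integrated stress responses were higher and 1 lower (3 and 2 with the length and GC trend removed). Of 23 heat shock genes 1 was higher, Hspb7, a small heat shock protein of muscle (0.74, with 0.99 in hetX753 and 0.49 in hetL1002P). The 2 lower were Hspb3 (-0.46, with -0.66 and -0.27, or -0.14 with the trend removed) and Hsf1 (-0.23, with -0.30 and -0.17). Of 21 clock genes 4 were higher, among them Rora (0.40), Tef (0.26) and Per3 (0.63), and 1, Npas2, lower, at -2.05, or -0.63 without WT 1. In hetX753 and hetL1002P, Rora stood at 0.53 and 0.27 and Tef at 0.40 and 0.12. Per3 stood at 0.95 and 0.31 there, and Npas2 at -2.99 and -1.11. After the length and GC trend was removed, 0 clock genes were higher at that p, and Rora stood at -0.01. Of 32 extracellular matrix genes 1 was higher and 1 lower.

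Markers of other cell types had medians on both sides of 0, often on different sides in the alleles. The summed adipocyte markers ran from 300 to 472 CPM in WT, 201 to 239 in hetL1002P and 239 to 491 in hetX753, and the median of the 7 was -0.22 (0.13 in hetX753, -0.51 in hetL1002P), or -0.01 with the length and GC trend removed and -0.41 without WT 3. The 6 macrophage markers summed to 45.2 to 82.6, 42.2 to 87.3 and 48.8 to 53.1 CPM, and the 7 fibroblast markers to 646 to 782, 418 to 1000 and 482 to 600 CPM, in the same order of groups. The 5 smooth muscle markers had a median of 0.49 (0.71 and -0.07), or 0.30 with the trend removed. That median was 0.21 without WT 3 and 0.28 without WT 3 and hetL1002P 3. These markers summed to 118 to 164, 126 to 179 and 154 to 286 CPM. For both adipocyte and smooth muscle markers, hetX753 2 alone set the top of the hetX753 range. Its adipocyte sum was 491 CPM, against 271 in hetX753 1 and 239 in hetX753 3. Its smooth muscle sum was 286 CPM, against 154 and 172 in those libraries. The 6 lymphocyte markers summed to 1.16 to 2.32, 1.38 to 3.86 and 3 to 3.52 CPM, with Cd8a and Ms4a1 at 0 to 6 reads per library. Of these markers 2 were tested, Cd3e and Ptprc, so their median of 1.16 is only a midpoint. Cd3e, a T cell receptor subunit, averaged 2.10 (hetX753 2.80, hetL1002P 1.41) and did not pass (adjusted p 0.245, edgeR). The reads of Cd3e numbered 9, 6 and 1 in the WT libraries, 37, 3 and 3 in those of hetL1002P, and 44, 48 and 23 in those of hetX753. In the same order of groups, reads of Cd4 numbered 9, 3 and 0, then 1, 4 and 2, then 4, 2 and 1. Reads of Cd8a numbered 4, 1 and 0, then 1, 2 and 2, then 0, 0 and 3. Neither showed the rise of Cd3e, at 0 to 9 reads per library. With the trend removed Cd3e averaged 2.14, and Ptprc, the other marker tested, lay below 0. Of the 5 erythroid markers 4, the globin genes, had 0 reads in all 9 libraries, while Alas2 had 84 to 290. Whether reads of globin genes were counted is not stated, so these 0 values are no measure of blood content. The part of these cell types in the differences above was not tested.

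**Figure D5:**
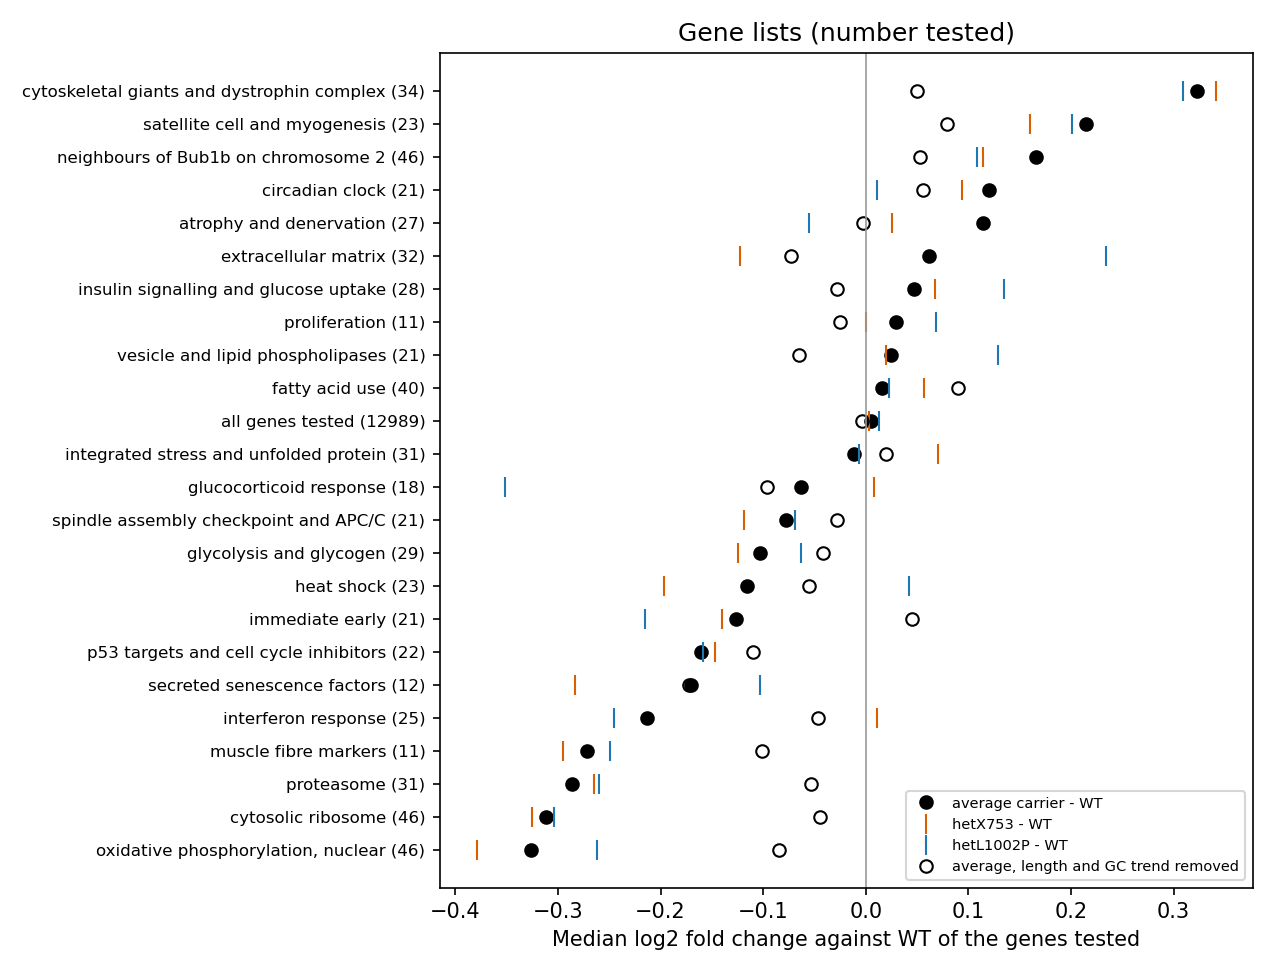
Median log2 difference from WT (horizontal axis) of the tested members of each gene list plotted and of all genes, with the number tested in brackets, for the average carrier (filled circles), hetX753 (orange ticks), hetL1002P (blue ticks) and the average with the length and GC trend removed (open circles). Of the lists plotted, which leave out slow fibre genes and markers of cell types other than muscle fibres, ribosome, proteasome and oxidative phosphorylation lie lowest and the cytoskeletal list highest, and the open circles of these 4 lie nearer 0.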

How the data were processed

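RNA from mouse gastrocnemius was made into unstranded TruSeq RNA v2 libraries, per the labels' protocols. The authors deposited whole-number read counts for 24062 gene symbols in 9 libraries, not normalized. The genome build mm10 and the tools featureCounts 1.4.6, Subread, Bowtie2 2.2.6 and TopHat2 2.0.14 appear in the submitters' processing notes without role or order. Which annotation and filters the authors used is not stated in the labels or the file. Groups came from the titles.

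Counts were fitted with edgeR 4.0.16 in R 4.3.3 (TMM scaling, robust quasi-likelihood test, filterByExpr, 12989 genes kept) on the 9 libraries together, with genotype as sole term, so 6 residual degrees of freedom were left. The average carrier is the mean of both single-allele contrasts, and the contrast of the alleles tests unequal contribution. A gene passed at a Benjamini-Hochberg adjusted p under 0.05. Standard errors are the size of the log2 difference over the root of F. Positions and promoters are RefSeq's (GRCm38.p6, matched by 99.34% of symbols), and lengths and GC content those of the longest GENCODE M21 transcript (98.42% of symbols). Alternatives used limma 3.58.1, DESeq2 1.42.0, sva 3.50.0 and mgcv 1.9.3. The edgeR fit was tested on simulated counts with 200 changed genes, the same dispersion for every gene, no length trend and no outlying library. That check does not cover how the fit handles libraries such as WT 3 and hetL1002P 3.

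Genes named in the text are the 15 of smallest p averaging at least 1 CPM, leaving out predicted and sex-linked genes, then Bub1b, the called genes, and up to 4 members of each list with an unadjusted p under 0.05. The members and the 34 lists were chosen with earlier results of these data known. Exon overlap was not given above for every named gene. On the other strand it also holds for Nin (Gm48695), Cyp2f2 (Gm15883), Cox4i1 (Emc8), Nrap (Gm17197 and Habp2) and Pdha1 (Map3k15), among others. Libraries of a genotype were not duplicates: chi-square per degree of freedom ran from 14.3 to 65.6 over all pairs.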

Additional observations from a re-analysis of the deposited data

Results flagged for a closer look

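Log2 differences between the alleles (hetX753 minus hetL1002P) passed edgeR's quasi-likelihood test, at an adjusted p under 0.05, in 4 named genes: Tbc1d4 at -1.49, Snhg6 at -1.41, Pla2g7 at -1.88 and Ankrd33b at 1.18. In each of them hetX753 stood farther from WT, and all 3 hetX753 libraries lay outside the range of the 6 other libraries.

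In 8 of 100 named genes the highest or lowest of the 6 carrier libraries stood apart, with a gap to its neighbour, as a share of the range of the 6, above Dixon's 95% critical value. Chance gives about 1 such group in 20. In Pvalb (0.719), Perp (0.629), Cox4i1 (0.645), Psma5 (0.752) and Pkm (0.822) hetL1002P 3 was the high library. In Dmd (0.782) and Zfp106 (0.73) hetL1002P 3 was the low library. In Hk2 (0.672) it was hetX753 3, the high library.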

How the results depend on the processing

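Pla2g4e kept its direction in all 21 alternatives (log2 0.96 to 1.26) and passed in 13, with adjusted p from 6.68e-13 to 0.183. Gm14085 kept its direction in all 20 that gave a value and passed in 10, with adjusted p from 0.00883 to 0.298. DESeq2 gave it no adjusted p in the average. Bub1b kept its direction in 20 and passed in 0. The number of genes passing was 201 with DESeq2 (154 higher, 47 lower), 0 with library totals (0 higher), 0 with at least 1 CPM in 3 libraries (0 higher), 5 with 1 surrogate variable (2 lower) and 11 without WT 3 and hetL1002P 3 (11 higher). Leaving out 1 library gave 0 to 1369 (higher 0 to 696, lower 0 to 673): 0 without WT 1, WT 2, WT 3, hetL1002P 1, hetX753 1 or hetX753 3, 3 without hetL1002P 2, 6 without hetX753 2 and 1369 without hetL1002P 3. Genes passing by both alleles numbered 3 with DESeq2, 2 with no low-count filter, 1 with 1 surrogate variable, 1 with length and GC removed, 2 without WT 3 and hetL1002P 3 (Pla2g4e and Dmd), and 0 to 1 when leaving out 1 library. Passing genes whose alleles differed numbered 29 with DESeq2, 3 with 1 surrogate variable, 1 without WT 3 and hetL1002P 3, and 0 to 10 when leaving out 1 library. The cause of these changes was not tested. Of 2095 values of the 100 named genes 2094 kept their direction; Rora reversed to -0.0141 with length and GC removed. Scaling by library totals shifted the median of all genes by 0.104 (log2).

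With the replicate block 1 gene passed (1 higher), Pla2g4e, with an adjusted p of 0.0343. The titles do not say what a replicate number marks. Deviations of same-numbered libraries correlated at 0.285 to 0.516 between WT and hetL1002P, against -0.454 to 0.198 for unlike numbers. The 0.516 was that of WT 3 with hetL1002P 3. Between WT and hetX753 the ranges were -0.144 to 0.164 and -0.231 to 0.131. Between the carriers they were -0.279 to 0.00565 and -0.241 to 0.281. Same-numbered libraries stood apart only between WT and hetL1002P, so the numbers were not taken as pairs over all 3 genotypes. Of the 9 libraries 7 correlated best with their own number, a hint from the data only. Depth limits genes such as Bub1b, Gm14085, Mmp3 and Rrm2, at 0 to 32 reads per library.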
